A study of Mus musculus with 185 samples.

Results

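The genes described here are the peptide genes Hcrt and Pmch and the receptor genes Hcrtr1, Hcrtr2 and Mchr1, 5 of the 57010 Ensembl genes in the count matrix, taken by symbol. Brain RNA was sequenced from male C57BL/6J mice, 8 weeks old, an inbred strain without an engineered allele. In the 16 h study, mice kept in pairs stayed on chow, were switched to a high-fat diet (HFD) or were fasted, with 6 mice in 3 cages per diet. In the 24 h study, mice kept alone stayed on chow (9 mice) or were fasted (10 mice). Each mouse gave 5 libraries: the whole hypothalamus, the superior and inferior colliculus, the hippocampus, and either frontal cortex (16 h) or zona incerta (24 h). The 185 count columns name the mouse and not the region, so the 5 columns of a mouse were added up, and the mouse was the replicate. At 16 h the study assigned diets to cages, and the main fits and permutation tests treat the mice of a cage as independent.

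Hcrt encodes the precursor of the orexins, peptides that promote wakefulness and feeding, and Pmch encodes the precursor of melanin-concentrating hormone (MCH), a peptide known for its effects on feeding and sleep. Both are made by separate neurons that lie side by side in the lateral hypothalamus and zona incerta and send axons through much of the brain. Hcrtr1 and Hcrtr2 encode the orexin receptors and Mchr1 the MCH receptor of rodents, all of them coupled to G proteins. The RNA of a peptide is therefore found where the cell bodies lie, and the RNA of a receptor in the cells that receive the peptide.

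Counts per mouse ran from 57962237 to 161577364. Of the 185 columns, 27 were below 1000000 counts or below 16000 genes expected in a draw of 500000 counts, limits set after the columns had been seen. The deposited labels mark the hypothalamus library as failing quality control in 8 mice: HFD mouse 13 and fasted mouse 12 at 16 h, chow mice 1422, 1441 and 1451, and fasted mice 1435, 1445 and 1455 at 24 h. The notes on mice 1422 and 1435 call the hypothalamus uncertain, and the notes on mice 1423 and 1454 report an exchange of their superior colliculus tubes, for which the study's methods say the metadata were corrected. Whether the headings of the count columns carry that correction is not given in the sources used here. Values without these mice stand beside some of the results, and other results are given over all mice only. Libraries of other regions were labelled as failing too. In all, each mouse of the 24 h study had 1 or 2 failing libraries, and mice of the 16 h study had 0 to 2. The sums keep them, also in fits without the mice with a failing hypothalamus library. The study discarded a block of 24 h libraries without detectable RNA, sequenced on a separate flowcell. The counts of that block are in the sums here. The summed level of 11 regulators of hypothalamic cell identity (Nkx2-1, Sim1, Otp and others) ran from 24.2 to 81.6 CPM (a gene's share of all counts of a mouse, times 1000000) in the 29 mice with a passing hypothalamus library and from 1.57 to 13.7 CPM in the 8 others, so these ranges did not overlap.

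Hcrt lies on chromosome 11 of GRCm39 at chr11:100651895-100653762 on the minus strand and has 754 exon bases in GENCODE vM39, of which 275 are also exon of the long noncoding RNA Gm73622 on the other strand, which was not analysed here. Pmch lies at chr10:87926933-87928237 on the plus strand, and each of its 750 exon bases is also exon of Parpbp, a DNA repair gene on the other strand. The study's methods name a directional library kit and gene counts from STAR, but the strand setting of the counts is not given in the sources used here. Reads of Pmch and Parpbp, and of Hcrt and Gm73622 where they overlap, can therefore not be told apart with certainty. Parpbp itself had between 0.738 and 1.75 CPM in every mouse, HFD mouse 13 included, which had 1.06 CPM of Parpbp and 0.169 CPM of Pmch. Hcrtr1 lies at chr4:130024004-130033557, Hcrtr2 at chr9:76132272-76231138, both on the minus strand, and Mchr1 at chr15:81119700-81123165 on the plus strand. No exon base of these receptor genes is shared with another annotated gene.

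The bases before the annotated start are shown for Hcrt, the peptide gene with the largest spread, and for Mchr1, the member called between diets. Capitals mark a match to TATAAA in Hcrt and to CACGTG in Mchr1. The 250 bases were read from GRCm39, on the gene's own strand, at chr11:100653763-100654012 for Hcrt and chr15:81119450-81119699 for Mchr1.
Hcrt: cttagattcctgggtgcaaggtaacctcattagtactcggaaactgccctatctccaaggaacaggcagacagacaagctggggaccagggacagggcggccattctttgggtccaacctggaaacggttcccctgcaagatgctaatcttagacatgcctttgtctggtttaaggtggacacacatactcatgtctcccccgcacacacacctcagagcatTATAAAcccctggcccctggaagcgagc
Mchr1: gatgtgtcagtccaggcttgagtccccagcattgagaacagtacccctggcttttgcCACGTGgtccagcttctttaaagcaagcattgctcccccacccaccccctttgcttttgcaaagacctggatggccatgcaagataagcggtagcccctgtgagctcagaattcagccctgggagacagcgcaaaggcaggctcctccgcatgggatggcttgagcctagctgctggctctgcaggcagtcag
TATAAA, the core of the TATA box, begins 28 bases before the start of Hcrt and 26 bases before the start of Pmch, whose upstream bases are exon of Parpbp and are not printed. Searched on both strands, it is in 12.5% of the 21756 promoters of the same length of protein-coding genes. CACGTG, an E-box, begins 193 bases before the start of Mchr1 and is in 5.69% of these promoters. TGACGTCA, the cAMP response element, is in 1.31% of them and in none of the 5 members. The promoters of Hcrtr1 and Hcrtr2 hold none of these letters. A match is a description of the sequence and not a mapped binding site.

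Hcrt was the most abundant of the 5 transcripts per length, followed by Pmch, Mchr1, Hcrtr2 and Hcrtr1. The median level over 37 mice was 26.6 CPM per kilobase of exon for Hcrt, 14.1 for Pmch, 3.62 for Mchr1, 0.898 for Hcrtr2 and 0.755 for Hcrtr1. Mchr1 was above Hcrtr2 per length in 37 of 37 mice. Hcrt was above Pmch in 32 of 37 mice, Pmch above Mchr1 in 32 of 37, and Hcrtr2 above Hcrtr1 in 31 of 37, so the order of those neighbours turned in some mice.

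The level of both peptide transcripts in a mouse rested almost wholly on 1 of its 5 columns. The highest column held a median of 98.5% of the summed CPM of Hcrt (49.8% to 99.5% over 37 mice) and 97.5% of that of Pmch (48.0% to 99.4%). Of the 185 columns, 41 had at least 10 CPM of Hcrt and 42 had at least 10 CPM of Pmch, a limit set after the values had been seen, and 40 had both. Under 1 CPM were 134 columns for Hcrt and 135 for Pmch. The highest column was the same for both peptides in 34 of 37 mice. In those high columns Hcrt reached 144 CPM and Pmch 67.5 CPM.

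**Figure D1:**
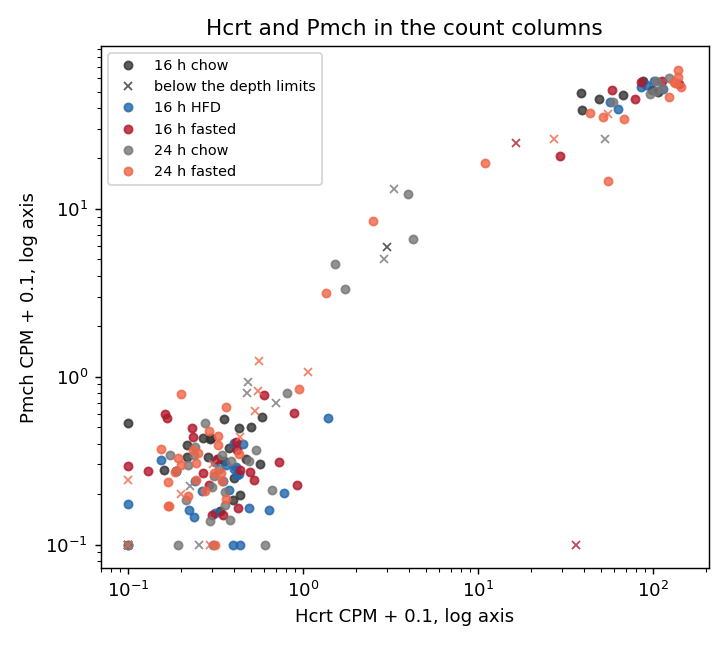
Each point is 1 of the 185 count columns, with Hcrt CPM on the x axis and Pmch CPM on the y axis (0.1 added to each, log axes), coloured by study and diet, and crosses are the 27 columns below the depth limits. Columns form a group near 0 and a group of 40 with at least 10 CPM of both, with few between them.

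By the limit of 10 CPM of Hcrt, 27 of 37 mice had 1 high column, 3 had none and 7 had 2. HFD mouse 13 and chow mice 1422 and 1441, whose hypothalamus libraries are labelled as failing, had none, and the highest values of mouse 13 were 1.29 CPM of Hcrt and 0.469 CPM of Pmch. At 16 h a second high column was seen in chow mouse 5 (38.6 CPM of Hcrt), HFD mouse 16 (85.0 CPM), fasted mouse 12 (16.4 CPM, from 2 reads among 121967 counts) and fasted mouse 11 (36.3 CPM, from 2 reads among 55087 counts). At 24 h it was seen in fasted mice 1424 (10.8 CPM), 1435 (27.2 CPM) and 1453 (51.6 CPM).

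The receptor transcripts were spread over the columns. The highest column held a median of 39.7% of the summed CPM of Hcrtr1, 44.7% of Hcrtr2 and 31.4% of Mchr1. Hcrtr2 peaked in the column with the most Hcrt in 31 of 37 mice and Hcrtr1 in 22 of 37. Mchr1 peaked there in 6 of 37 mice. Columns with 0 counts numbered 11 for Hcrt, 16 for Pmch, 7 for Hcrtr1, 7 for Hcrtr2 and 3 for Mchr1. These include nearly empty columns, such as that of fasted mouse 10 with 2994 counts in all, so a 0 alone does not show absence of a transcript.

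Other transcripts followed the peptides across libraries. Over the 158 columns that passed the depth limits, centred on their study, the genes most like Hcrt among 19223 genes with a mean of at least 1 CPM were Pmch (Pearson r of log2 CPM 0.96), the hypothalamic transcription factor Sim1 (0.95), the vasopressin gene Avp (0.94), C130093G08Rik (0.94) and the homeobox gene Nkx2-4 (0.94). For Pmch they were Hcrt (0.96), Avp (0.94), Sim1 (0.94), Sfta3 (0.93) and C130093G08Rik (0.93). Over 37 mouse sums, centred on study and diet, those of Hcrt were Sim1 (0.96), Pgr15l (0.95), Gpx3 (0.95), Dlk1 (0.95) and Pmch (0.94), and those of Pmch were Hcrt (0.94), Dlk1 (0.94), Sim1 (0.94), H2-Q2 (0.94) and Chodl (0.94). Columns share mice and each column is 1 region, and the sums of a mouse share 1 hypothalamus library and its depth, so these correlations describe the samples and carry no test.
The receptors had other neighbours. Over the 158 columns these were Rwdd2a (0.88), Impact (0.87), Mrap2 (0.84), Aff2 (0.84) and Gnas (0.84) for Hcrtr1, Ahi1 (0.91), Zfp92 (0.91), Rab9b (0.91), Qpct (0.91) and Rwdd2a (0.89) for Hcrtr2, and Wdr17 (0.86), Pld3 (0.85), Neto1 (0.84), Cacnb1 (0.84) and Kcng3 (0.84) for Mchr1. Over 37 mouse sums, Susd2 led for Hcrtr1 (0.89), Nynrin for Hcrtr2 (0.95) and Akap5 for Mchr1 (0.92). Mrap2, an accessory protein of G protein-coupled receptors, was second for Hcrtr1 over the mouse sums (0.88). The next genes over the mouse sums were Gng4, Slc7a3 and Gprasp2 for Hcrtr1 (0.87 each), Ankfn1, Susd2, Gprasp2 and Nr5a2 for Hcrtr2 (0.92 each), and Ppp1r9a (0.92), Wdr17 (0.91), Ccdc88c (0.90) and Phactr1 (0.90) for Mchr1.

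Hcrt did not pass the test in any comparison between diets. At 16 h, Hcrt had 8.28, 18.3 and 41.9 CPM (lowest, median and highest of 6 mice) on chow, 0.337, 15.0 and 33.3 CPM on HFD, and 5.12, 18.3 and 42.9 CPM in fasted mice. The groups overlapped over nearly their whole range, with HFD mouse 13 the lowest of the study. At 24 h, Hcrt had 0.749, 23.3 and 31.7 CPM on chow (9 mice) and 3.13, 25.9 and 62.9 CPM in fasted mice (10 mice). The 3 lowest chow mice, at 0.749, 1.08 and 2.11 CPM, were those whose hypothalamus library failed, and failing libraries also belonged to the lowest fasted mice.
Comparisons used edgeR's quasi-likelihood test with Benjamini-Hochberg adjustment over all genes tested, and a gene was called under an adjusted p of 0.05. After 16 h of fasting against chow, the log2 fold change of Hcrt was 0.091 (SE 0.58, adjusted p = 0.979), with a 95% interval from -1.13 to 1.31. It was -0.28 for HFD against chow (SE 0.58, adjusted p = 0.892), 0.37 for fasting against HFD (SE 0.58, adjusted p = 0.869) and 0.83 for 24 h of fasting against chow (SE 0.62, adjusted p = 0.463). Without the mice with a failing hypothalamus library, Hcrt at 24 h had 23.6 ± 6.66 CPM on chow (SD, n = 6) and 36.0 ± 15.2 CPM in fasted mice (SD, n = 7), a log2 fold change of 0.65 (SE 0.28) that was not called. At 16 h, Hcrt without those mice had 19.9 ± 11.7 CPM on chow (SD, n = 6). It had 19.2 ± 9.04 CPM on HFD (SD, n = 5) and 24.4 ± 11.3 CPM in fasted mice (SD, n = 5).

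Pmch showed the same picture at lower levels and did not pass the test in any comparison. At 16 h, Pmch had 7.67, 12.5 and 19.6 CPM (lowest, median and highest) on chow, 0.169, 8.95 and 20.4 CPM on HFD and 3.72, 12.1 and 18.0 CPM in fasted mice. At 24 h it had 1.11, 12.7 and 17.2 CPM on chow and 2.33, 12.0 and 26.7 CPM in fasted mice. The groups overlapped in both studies, and in each of the 5 groups the mouse lowest in Hcrt was also the lowest in Pmch. The log2 fold change of Pmch was -0.089 for 16 h of fasting against chow (SE 0.51, adjusted p = 0.976), -0.43 for HFD against chow (SE 0.51, adjusted p = 0.801), 0.34 for fasting against HFD (SE 0.51, adjusted p = 0.866) and 0.45 for 24 h of fasting against chow (SE 0.47, adjusted p = 0.627). Pmch at 24 h, without the mice with a failing hypothalamus library, had 13.0 ± 3.97 CPM on chow (SD, n = 6). Fasted mice then had 16.4 ± 6.19 CPM (SD, n = 7). At 16 h without those mice, Pmch had 12.9 ± 4.15 CPM on chow (SD, n = 6). It had 11.3 ± 5.19 CPM on HFD (SD, n = 5) and 13.7 ± 3.76 CPM in fasted mice (SD, n = 5). The antisense gene Parpbp rose in the 24 h fasted mice by a log2 fold change of 0.39 (SE 0.09, adjusted p = 0.00727) and at 16 h in fasted mice against HFD by 0.60 (SE 0.11, adjusted p = 0.0333). That 16 h call was lost with counts added up per cage, without mice with a failing hypothalamus library, with limma and without fasted mouse 11, where no gene was called. Parpbp had 0.47 for fasting against chow (adjusted p = 0.470) and -0.13 for HFD against chow at 16 h (adjusted p = 0.691). Its part in the values of Pmch was not tested.
In bulk tissue, fewer peptide neurons in the dissected piece and less RNA per neuron cannot be told apart. The intervals of both peptides were wide, and at 24 h the SE of Hcrt was smaller without the mice with a failing hypothalamus library. The part of the size, depth and quality of 1 library per mouse in these intervals was not tested.

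**Figure D2:**
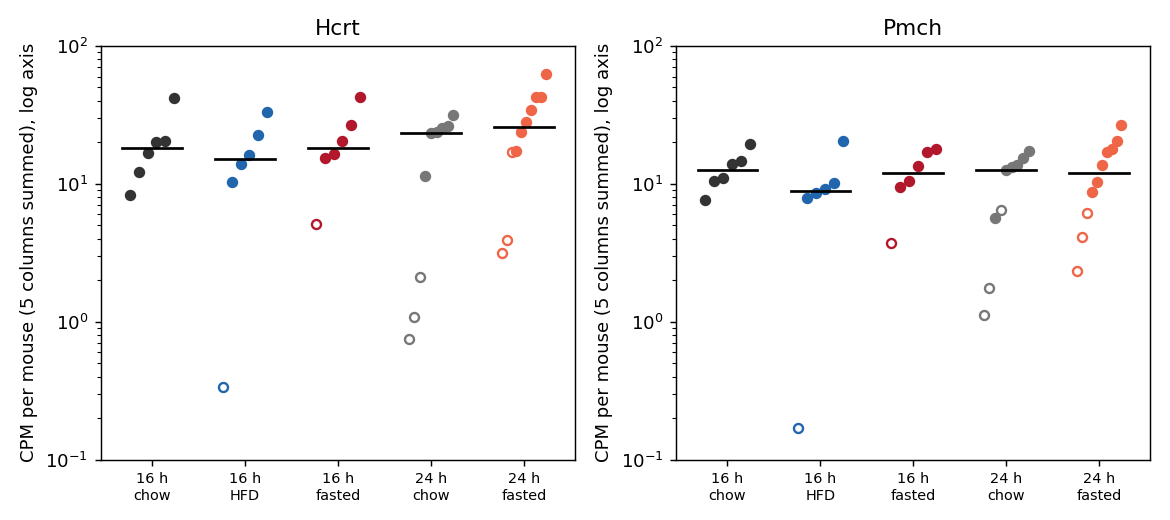
CPM of Hcrt (left) and Pmch (right) in the 5-column sum of each of 37 mice, on a log axis, by study and diet. Filled points are mice with a passing hypothalamus library, open points the 8 mice whose hypothalamus library is labelled as failing, bars are group medians, and HFD mouse 13 lies lowest in both panels at 0.337 and 0.169 CPM.

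The ratio of Hcrt to Pmch counts sets transcripts of neighbouring neurons in the same libraries against each other. At 16 h its lowest, median and highest values were 0.873, 1.45 and 2.14 on chow, 1.31, 1.69 and 2.21 on HFD, and 1.13, 1.60 and 2.53 in fasted mice, with overlap of the 3 diets. At 24 h they were 0.330, 1.74 and 2.05 on chow and 0.958, 2.07 and 2.78 in fasted mice. The difference of mean log2 ratios was 0.21 for fasting against chow at 16 h (exact permutation p = 0.429, two-sided, with an adjusted p of 0.571 over the 4 comparisons), 0.28 for HFD against chow (exact permutation p = 0.242, adjusted p = 0.485) and -0.072 for fasting against HFD (exact permutation p = 0.723, adjusted p = 0.723).
At 24 h the mean log2 ratio was 0.96 ± 0.45 in fasted mice (SD, n = 10) and 0.27 ± 0.98 on chow (SD, n = 9), a difference of 0.70 (exact permutation p = 0.0600, adjusted p = 0.240). Without the mice with a failing hypothalamus library, the ratio ran from 1.98 to 2.38 in 7 fasted mice, with a median of 2.08. In 6 chow mice it ran from 1.35 to 2.05, with a median of 1.99. Chow mice 1423, 1431 and 1432, at 2.05, 2.04 and 2.00, lay within the fasted range. Chow mice 1443, 1442 and 1452, at 1.97, 1.74 and 1.35, lay below it. The difference of mean log2 ratios was then 0.23, with an exact permutation p of 0.0221 that did not pass adjustment over the 4 comparisons (adjusted p = 0.0886).

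**Figure D3:**
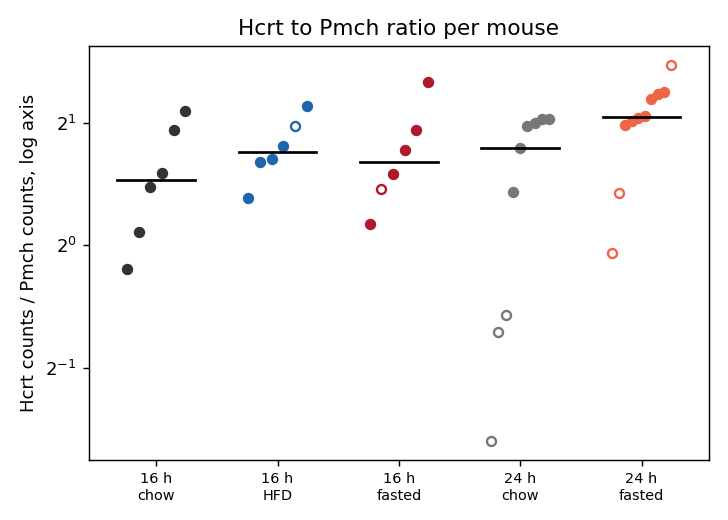
Hcrt counts divided by Pmch counts in the 5-column sum of each mouse, on a log axis, by study and diet, with bars at the medians and open points for mice whose hypothalamus library is labelled as failing. The 7 fasted mice at 24 h with a passing library lie between 1.98 and 2.38, and the lowest point of all is a chow mouse at 0.330.

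Hcrtr1, the receptor with a preference for orexin A, did not pass the test in any comparison. Its level was 2.79, 4.05 and 5.87 CPM on chow, 2.43, 3.68 and 4.74 CPM on HFD and 2.68, 3.40 and 4.41 CPM in fasted mice at 16 h (lowest, median and highest of 6), and 0.951, 2.96 and 3.82 CPM on chow against 1.29, 2.52 and 6.46 CPM in fasted mice at 24 h. The ranges overlapped in every comparison. The log2 fold change was -0.24 for 16 h of fasting against chow (SE 0.17, adjusted p = 0.767), -0.14 for HFD against chow (SE 0.17, adjusted p = 0.802), -0.10 for fasting against HFD (SE 0.17, adjusted p = 0.875) and 0.16 for 24 h of fasting against chow (SE 0.26, adjusted p = 0.772).

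Hcrtr2, the receptor that binds both orexins and whose loss causes narcolepsy in dogs, did not pass the test over all mice in any comparison, and at 24 h it had 5.98 CPM at the median on chow and 4.26 CPM in fasted mice. At 16 h it had 5.58, 8.80 and 10.7 CPM on chow, 4.39, 7.22 and 9.32 CPM on HFD and 4.68, 6.95 and 8.73 CPM in fasted mice, with overlap of the 3 diets. At 24 h the chow mice 1422, 1423, 1431, 1432, 1441, 1442, 1443, 1451 and 1452 had 2.12, 7.31, 5.98, 7.18, 4.02, 5.88, 6.49, 5.63 and 7.24 CPM. The fasted mice 1424, 1425, 1433, 1434, 1435, 1444, 1445, 1453, 1454 and 1455 had 5.14, 6.41, 3.95, 4.06, 3.53, 4.46, 2.79, 4.67, 5.67 and 4.00 CPM. The groups overlapped: most chow mice were higher than most fasted mice, fasted mouse 1425 lay above several chow mice, and chow mice 1422 and 1441, with failing hypothalamus libraries, were the lowest of their group, 1422 below every fasted mouse.
The log2 fold change of Hcrtr2 at 24 h was -0.31 over all mice (SE 0.18, adjusted p = 0.297). It was -0.41 without the 6 mice with a failing hypothalamus library (SE 0.11, adjusted p = 0.0298), where 9.48% of the 29251 genes tested were called, with 6.68 ± 0.653 CPM on chow (SD, n = 6) and 4.91 ± 0.893 CPM in fasted mice (SD, n = 7). Leaving out chow mouse 1422 alone gave -0.42 (adjusted p = 0.0410). With the mice with a tube exchange and low columns left out as well, it was -0.38 and not called (adjusted p = 0.0908). At 16 h the log2 fold change was -0.28 for fasting against chow (SE 0.16, adjusted p = 0.706), -0.25 for HFD against chow (SE 0.16, adjusted p = 0.618) and -0.038 for fasting against HFD (SE 0.16, adjusted p = 0.961).

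Mchr1, the receptor for MCH, rose in the 24 h fasted mice, the sole member called in any comparison over all mice. The chow mice 1422, 1423, 1431, 1432, 1441, 1442, 1443, 1451 and 1452 had 6.69, 6.39, 5.86, 5.49, 4.20, 5.68, 7.91, 5.70 and 5.06 CPM. The fasted mice 1424, 1425, 1433, 1434, 1435, 1444, 1445, 1453, 1454 and 1455 had 8.24, 6.65, 7.32, 8.19, 5.99, 5.74, 27.0, 9.12, 8.87 and 7.43 CPM. Fasted mice lay above most chow mice with overlap, and mouse 1445 lay far above all others.
The log2 fold change was 0.73 (SE 0.23, adjusted p = 0.0457), a fold of 1.66 with a 95% interval from 1.19 to 2.31. Between these groups 11.4% of the 29011 genes tested were called, and 5.78% were called higher in fasted mice, against 1 of 5 members, so the count of members called was read against a background of that size. Without mouse 1445 the log2 fold change was 0.41 (adjusted p = 0.0107). Without the 6 mice with a failing hypothalamus library it was 0.40 (SE 0.12, adjusted p = 0.0502), with 6.06 ± 1.01 CPM on chow (SD, n = 6) and 7.73 ± 1.23 CPM in fasted mice (SD, n = 7). Of the 19 fits that each left out 1 mouse, 7 kept the call. It was lost, with adjusted p up to 0.0826, without any one of chow mice 1422, 1423, 1431, 1432, 1441, 1442, 1451 and 1452 and fasted mice 1424, 1433, 1434 and 1454. It was also lost when genes were not filtered (adjusted p = 0.0529), with clock time as a term (adjusted p = 0.0642), without the 2 mice with a tube exchange (adjusted p = 0.0721) and with each column given equal weight in limma (adjusted p = 0.164), with log2 fold changes between 0.62 and 0.76. DESeq2 gave 0.74 (adjusted p = 0.0151).
Mouse 1445 had 42.9 and 28.7 CPM of Mchr1 in 2 of its 5 columns, which hold 19996728 and 21540015 of its 57962237 counts, and between 3.33 and 6.79 CPM in the others. It stood apart on the high side, by Dixon's gap criterion, for 1001 of the 18112 genes with a mean of at least 1 CPM in the 24 h fasted mice, against 13 to 445 genes for the other 9. Its summed hypothalamus regulators were 13.7 CPM and its hippocampus markers 65.8 CPM, the lowest of its group, where the range was 65.8 to 285 CPM. The part of these in its Mchr1 level was not tested.
At 16 h Mchr1 did not differ beyond the spread of the mice. It had 7.48, 8.81 and 9.80 CPM on chow, 7.62, 8.66 and 10.3 CPM on HFD and 7.03, 9.03 and 10.2 CPM in fasted mice (lowest, median and highest of 6). The log2 fold change was 0.034 for fasting against chow (SE 0.11, adjusted p = 0.956), with a 95% interval from -0.19 to 0.26. It was 0.070 for HFD against chow (SE 0.11, adjusted p = 0.848) and -0.036 for fasting against HFD (SE 0.11, adjusted p = 0.940).

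**Figure D4:**
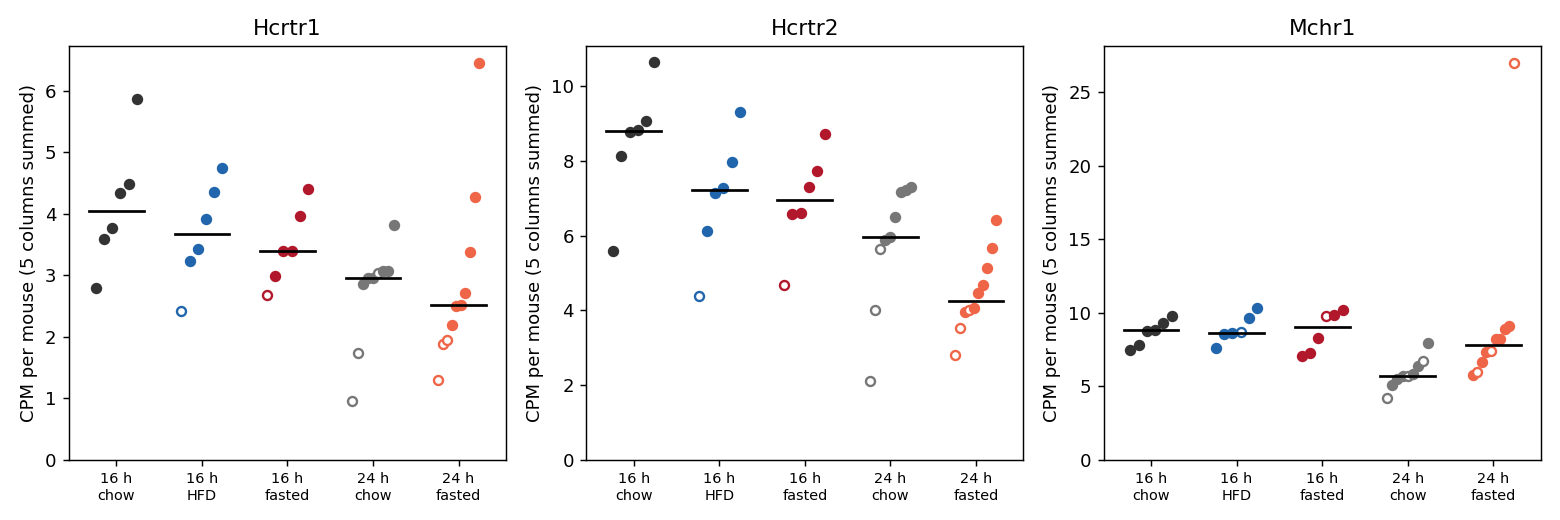
CPM of Hcrtr1, Hcrtr2 and Mchr1 in the 5-column sum of each of 37 mice, by study and diet, with bars at group medians and open points for mice whose hypothalamus library is labelled as failing. Each axis starts at 0, and mouse 1445 is the point at 27.0 CPM in the Mchr1 panel.

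At 16 h, fasting against chow and HFD against chow each gave 0 of 29746 genes called, a background of 0% with 2267 and 2914 genes at an unadjusted p under 0.05, and DESeq2 called 19 and 5. Fasting against HFD gave 0.219% called, and 0 genes with counts added up per cage. The number of members called was 0 of 5 in each of the 3, and the chow mice are shared by the first 2, as the fasted and HFD mice are with the third. All 5 members passed the filter on low counts in both studies.
The fasting effect at 24 h was set against that at 16 h in 1 fit over the 37 mice, in which 1.7% of 30849 genes were called and 0 of the 5 members. The difference of log2 fold changes was 0.69 for Mchr1 (SE 0.29, p = 0.0223 from edgeR, adjusted p = 0.328), 0.73 for Hcrt (SE 0.93, adjusted p = 0.906), 0.53 for Pmch (SE 0.74, adjusted p = 0.921), 0.40 for Hcrtr1 (SE 0.34, adjusted p = 0.805) and -0.026 for Hcrtr2 (SE 0.26, adjusted p = 0.998). Hours of fasting, housing, sequencing run and 1 of the 5 regions change together between the studies and cannot be told apart.

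**Figure D5:**
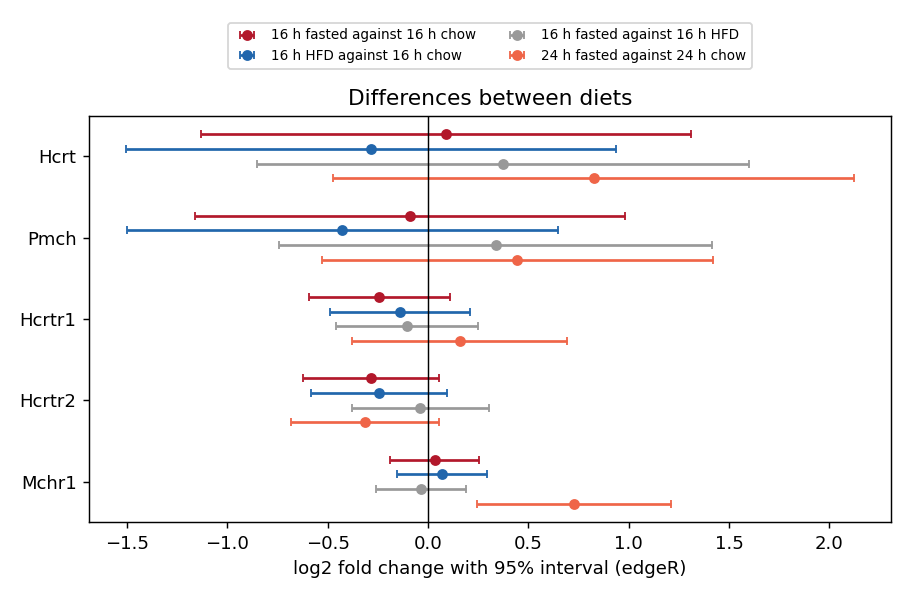
log2 fold change and 95% interval from edgeR for the 5 members in the 4 comparisons between diets, on the x axis, with 0 marked by a line. The interval of Mchr1 at 24 h, from 0.25 to 1.21, lies above 0, and the intervals of Hcrt and Pmch are the widest.

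Of 12 genes that mature and pack peptides such as the orexins and MCH, 1 rose and 0 fell at 24 h, where 11.4% of all genes tested were called: Vgf, whose product is a granule protein of peptide neurons, went from 134 ± 12.2 CPM on chow (SD, n = 9) to 168 ± 27.4 CPM in fasted mice (SD, n = 10), a log2 fold change of 0.37 (SE 0.08, adjusted p = 0.00462). The call was kept without each mouse in turn and lost with limma (0.28, adjusted p = 0.571) and without the failing and tube-exchange mice and low columns (0.38, adjusted p = 0.0573). The median log2 fold change of the list was 0.10 beside -0.0044 over all genes tested. The lowest value was -0.11 for Pam, the enzyme that amidates peptides (adjusted p = 0.610). The prohormone convertase genes had 0.02 (Pcsk1, adjusted p = 0.967) and 0.19 (Pcsk2, adjusted p = 0.325). Without the mice with a failing hypothalamus library, Pcsk2 was called at 0.28 (adjusted p = 0.0372). At 16 h, 0 of the 12 were called in any comparison, with values from -0.15 (Pcsk1) to 0.17 (Pcsk2) for fasting against chow, from -0.11 (Scg2) to 0.12 (Vgf) for HFD against chow and from -0.17 (Vgf) to 0.14 (Scg5) for fasting against HFD.

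Of 12 genes that couple these receptors to the cell, 0 rose and 1 fell at 24 h, beside 11.4% of all genes tested. Plcb3, a phospholipase C acting under Gq proteins, had 20.7 ± 1.36 CPM on chow (SD, n = 9) and 18.0 ± 1.61 CPM in fasted mice (SD, n = 10), a log2 fold change of -0.15 (SE 0.05, adjusted p = 0.0417). Of the 19 fits without 1 mouse, those without chow mouse 1452 and fasted mice 1424, 1435 and 1445 kept this call, the others had adjusted p up to 0.108, and limma gave 0.060 (adjusted p = 0.959). The highest value was 0.45 for the related Plcb1 (SE 0.15, adjusted p = 0.0634), which was at 393 CPM in mouse 1445 beside a group median of 172 CPM and had 0.28 without that mouse (adjusted p = 0.0430). The lowest was -0.17 for Gnai2, which encodes an inhibitory G protein subunit (SE 0.08, adjusted p = 0.195). The median of the list was 0.0047. At 16 h, 0 of the 12 were called, and values ran from -0.18 (Plcb4) to 0.18 (Plcb1) for fasting against chow, from -0.27 (Plcb4) to 0.25 (Plcb1) for HFD against chow and from -0.07 (Plcb1) to 0.09 (Plcb4) for fasting against HFD.

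Of 9 genes expressed in or beside orexin and MCH neurons, 0 were called in any comparison, beside 11.4% of all genes at 24 h and 0% to 0.219% at 16 h. At 24 h the highest was Pdyn, the dynorphin precursor that orexin neurons also make, with a log2 fold change of 0.64 (SE 0.45, adjusted p = 0.423), or 0.24 without mouse 1445 (adjusted p = 0.762). It had 2.15, 13.8 and 23.8 CPM on chow and 4.52, 16.2 and 62.8 CPM in fasted mice (lowest, median and highest). The lowest was Lhx9, a transcription factor of orexin neurons, at -0.40 (SE 0.20, adjusted p = 0.226). The median of this list was 0.12. At 16 h, values ran from -0.48 (Cartpt, a peptide found in MCH neurons) to 0.26 (Lhx9) for fasting against chow, from -0.45 (Nts) to 0.34 (Nptx2) for HFD against chow and from -0.35 (Nptx2) to 0.34 (Lhx9) for fasting against HFD. HFD mouse 13, with 0.337 CPM of Hcrt, still had 90.9 CPM of these 9 genes together, where the median of its group was 135 CPM. The sums over 5 regions are therefore not values of orexin and MCH neurons alone.

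Further marker lists covered hippocampus and tectum, which were sampled, and thalamus, choroid plexus and pituitary, which a dissection could also hold. Their levels varied between mice within each diet, and none of their genes was called in a comparison between diets. Their summed level in 24 h fasted and chow mice ran from 69.5 to 886 and 56.3 to 1090 CPM for 6 thalamus markers, 65.8 to 285 and 110 to 404 CPM for 8 hippocampus markers, 21.0 to 85.2 and 29.5 to 106 CPM for 6 tectum markers, 32.7 to 4213 and 25.5 to 1814 CPM for 7 choroid plexus markers, and 6.50 to 271 and 6.46 to 1137 CPM for 7 pituitary markers. At 16 h, these lists ran over the 18 mice from 36.0 to 47.8, 67.8 to 429, 25.1 to 103, 19.6 to 599 and up to 10.4 CPM. No gene of these lists was at 0 throughout a group. Their part in the values of the 5 members was not tested.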

How the data were processed

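Total RNA of 5 brain regions from each of 37 mice was depleted of rRNA and read from both ends. Following the labels and the study's methods, the authors used bcl2fastq 2.20.0, aligned reads to GRCm39 with STAR 2.7.3a and deposited raw counts per gene without normalization. The study's methods name a directional library kit. The annotation release and the strand setting of the counts are not given in the sources used here. Each count column was assigned to its mouse by its heading (185 columns, 5 per mouse), not to a region.

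Counts per mouse were compared with edgeR 4.0.16 (filterByExpr, TMM, glmQLFit, glmQLFTest, Benjamini-Hochberg, adjusted p under 0.05) in R 4.3.3, with 18 mice in 1 fit at 16 h, 19 at 24 h and 37 for the difference between the studies. Alternatives used DESeq2 1.42.0 (sum of counts over 10), limma 3.58.1, other size factors, columns, covariates and mice. Permutation tests were run in scipy 1.17.1 with 0.5 added to the counts of a ratio. The code of the fits was run on simulated counts with the same spread for every gene and no failing libraries. That run does not show how the fits perform for genes as variable as Hcrt and Pmch. Sums weight libraries by depth, the median column held 17626610 counts, and intervals cover the spread between mice. Reads carry no molecular identifiers. Symbols came from GENCODE vM39 and matched 56310 of 57010 genes. The named genes are the 5 members, the genes of 3 lists that were called or had the largest or smallest change, and the 5 genes most correlated with each member. The members and lists were chosen with earlier results of these data known.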

Additional observations from a re-analysis of the deposited data

Results flagged for a closer look

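For each of the 5 genes and for the Hcrt to Pmch ratio, the highest and lowest mouse of each of the 5 groups was compared with the others by Dixon's gap criterion, which chance meets in about 1 in 20 groups. Of 30 groups examined, 2 held a mouse that stood apart. Fasted mouse 1445 at 24 h had 27.0 CPM of Mchr1, with the next highest at 9.12 CPM. Chow mouse 2 at 16 h had 41.9 CPM of Hcrt, with the next highest at 20.4 CPM. Its hypothalamus library passed quality control, and its summed hypothalamus regulators were 56.5 CPM, where chow mice ran from 27.3 to 57.2 CPM. Its highest Hcrt column had 107 CPM and held 45657731 of its 117021998 counts. In the other 16 h chow mice that column had 39.1 to 98.8 CPM and 12707072 to 32933724 counts. The part of this depth in the summed level was not tested.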

How the results depend on the processing

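The values of the 5 genes, the ratio and, in some settings only, the gene lists were compared under alternative settings, mice left out in turn apart. Of these, 246 kept their direction and their side of the threshold, 7 changed sign and 6 lost a call. A call was gained by 1, and 1 list's count moved by more than 1.5 times. Gene lists were not in this tally with limma or in the settings that left mice out. The losses of Vgf and Plcb3 with limma and the gain of Pcsk2 without mice with a failing hypothalamus library are therefore not counted. The signs that changed belonged to values that were not called in any setting. Without the mice with a failing hypothalamus library, fasting against chow at 16 h gave 0.095 for Pmch and -0.013 for Mchr1, and the log2 ratio of Hcrt to Pmch between fasting and HFD gave 0.017. With the hypothalamus regulators as a term, Pmch gave 0.37 for fasting against chow at 16 h and Hcrt 0.030 for HFD against chow. With each column of equal weight (limma), Mchr1 gave -0.12 for fasting against chow at 16 h and Hcrtr2 0.19 for HFD against chow. That setting moved the median of all genes to -0.25 for fasting against chow and to -0.26 for fasting against HFD at 16 h. The cause of these changes was not tested.

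The 24 h call of Mchr1 was lost at 0.73 without a filter on low counts, 0.40 without mice with a failing hypothalamus library, 0.69 with clock time as a term, 0.76 without the mice with exchanged tubes, 0.39 without both kinds of mice and without low columns (an alternative added after seeing the data) and 0.62 with limma, with adjusted p from 0.0502 to 0.164. Hcrtr2 gained a call at -0.41 without mice with a failing hypothalamus library and had -0.38, not called, without both kinds of mice and low columns. Over all genes, fasting against HFD at 16 h gave 65 calls as reported, 354 with DESeq2, 142 with clock time, 26 without a filter, and 0 per cage, without mice with a failing hypothalamus library and with limma. With 1 mouse left out it ran from 0 (without fasted mouse 11) to 108 (without chow mouse 6), within 1.5 times of 65 only without chow mice 2, 4 or 5 or HFD mouse 14. The 24 h comparison gave 3307 as reported, 2094 without both kinds of mice and low columns, and 837 with limma. DESeq2 called 2 receptor coupling genes at 24 h (Plcb1 and Gna11) in place of 1 (Plcb3). With each mouse left out in turn, values ran from -0.24 to 0.093 for Pmch, from -0.24 to 0.45 for Hcrt and from -0.017 to 0.087 for Mchr1 (fasting against chow, 16 h), from -0.63 to 0.068 for Hcrt and from -0.81 to -0.17 for Pmch (HFD against chow), from 0.047 to 0.72 for Hcrt, from 0.081 to 0.72 for Pmch, from -0.14 to 0.058 for Hcrtr2, from -0.087 to 0.022 for Mchr1 and from -0.20 to 0.036 for the log2 ratio (fasting against HFD), and from -0.032 to 0.24 for Hcrtr1, from -0.42 to -0.25 for Hcrtr2 and from 0.41 to 0.79 for Mchr1 (24 h). No paired analysis was possible because the diets share no replicate numbers. The counts of both peptides come mainly from 1 library per mouse.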
